A study of Mus musculus with 12 samples.

Results

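The genes described here are 10 genes of natural killer (NK) cells and cytotoxic lymphocytes, chosen by name: Gzma, Gzmb, Gzmk, Prf1, Nkg7, Ncr1, Klrb1c, Klrk1, Eomes and Ifng. All 10 were found once among the 55414 genes of the table. RNA of whole lung was sequenced from 12 C57BL/6 J mice, all given lipopolysaccharide (LPS), a bacterial cell wall component that induces acute lung injury, and taken on day 4. In the 6 IL-10 B-KO mice a floxed Il10 gene is deleted by Mb1-Cre, which is driven by the B cell gene Mb1 (Cd79a), and the other 6 were IL-10 B-WT mice. Whether the IL-10 B-WT mice carry floxed alleles or Cre, and the age of the mice, are not given in the sources used here. The comparison asks how loss of IL-10 from B cells bears on the lung after LPS. The authors deposited values as TPM, a unit in which reads are divided by gene length and scaled to a common total, so that levels can be compared between genes but how deeply a lung was sequenced cannot be read from them.

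NK cells kill stressed or infected cells without prior sensitisation, and cytotoxic T cells do so after recognising an antigen. Both store perforin, which makes pores in a target cell, and granzymes, proteases that enter through them and start cell death. Both also secrete interferon gamma, which activates macrophages and induces chemokines that draw more lymphocytes into the lung. Of the 10 genes, Ncr1 and Klrb1c are the ones most used to mark NK cells, while the granzymes, Prf1, Nkg7, Klrk1, Eomes and Ifng are also made by T cells.

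Some libraries stood apart from others of their genotype. Il10, the targeted gene, reached 0.88 TPM in the IL-10 B-WT group and 0.58 TPM in the IL-10 B-KO group, was at 0 in a lung of each, and the groups overlapped (two-sided exact permutation test on log2(TPM + 1), p = 0.745, n = 6), so that it did not check the labels. Cd79a lay between 15.3 and 258.6 TPM in IL-10 B-WT lungs, highest in replicate 2, and did not exceed 0.05 TPM in replicates 1, 3, 4 and 5 of IL-10 B-KO. IL-10 B-KO replicates 2 and 6 had Cd79a at 4.35 and 5.73 TPM. IL-10 B-WT replicate 1 had Cd68, a macrophage marker, at 336.1 TPM, where the other IL-10 B-WT lungs lay between 22.2 and 109.0 TPM. Results are also given without IL-10 B-KO replicates 2 and 6, an alternative chosen after seeing the data, and without replicate 1 of IL-10 B-WT and replicate 2 of IL-10 B-KO, a pair chosen with earlier results of these data known. Neither choice is independent of the values.

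No member separated the genotypes. Of the 10 members, 9 reached 1 TPM in at least 6 libraries and entered the fit with limma on log2(TPM + 1), and Gzmk did not. None of these 9 passed the threshold, a log2 fold change of 1 or more in either direction at an adjusted p of 0.05, against 75 of all 15148 genes tested (0.495%; 71 on the lower and 4 on the higher side), a number that lay between 15 and 576 when single libraries were left out. At an unadjusted limma p of 0.05 or less the members numbered 0 in either direction, against 6.83% of all genes on the side higher in IL-10 B-KO and 5.71% on the lower side. The groups of all 10 members overlapped, while they were separate for 1.02% of all genes tested. The log2 fold change was above 0 for 9 of the 9 members and for 63.2% of all genes tested, with medians of 0.29 and 0.10. After centring each library on its median, which turned Klrb1c, it was above 0 for 8 members and for 48.7% of all genes, with medians of 0.18 and -0.01. For all 10 the difference between genotypes was smaller than the pooled SD within a genotype. The 95% intervals of the 9 members all included 0, and their widths to either side, 0.66 to 1.26, were above the median of 0.48 over all genes, so that moderate differences in either direction cannot be told from none. In whole lung, fewer cells of a type and less RNA per cell cannot be told apart. Members passing the threshold also numbered 0 without IL-10 B-KO replicates 2 and 6 and without replicate 1 of IL-10 B-WT and replicate 2 of IL-10 B-KO.

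**Figure D1:**
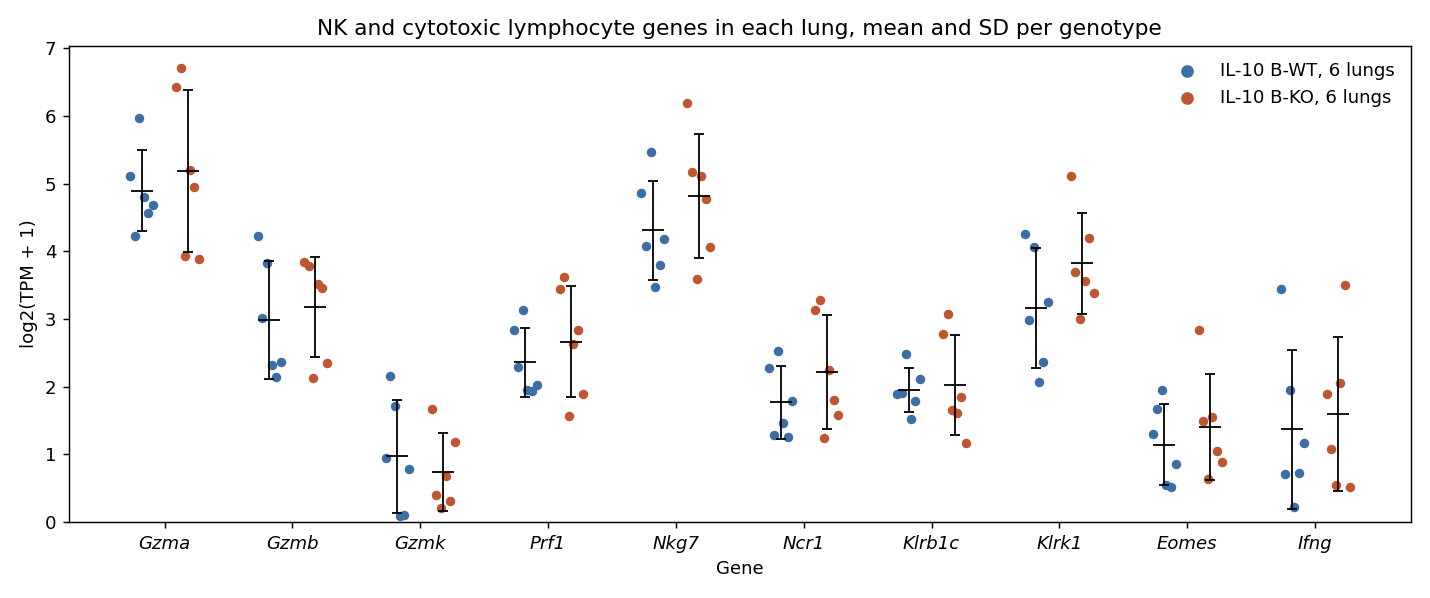
Level of the 10 genes on the log2(TPM + 1) scale in each of 12 lungs, with the IL-10 B-WT lungs in blue, the IL-10 B-KO lungs in orange, and the mean and SD of each genotype as black bars. The points of the 2 genotypes overlap for all 10 genes, and Gzma and Nkg7 lie highest.

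Gzma (ENSMUSG00000023132, chr13:113093825-113100981, GRCm38, minus strand) encodes granzyme A, a trypsin-like protease of cytotoxic granules. It lay between 17.8 and 61.8 TPM (median 25.8) in IL-10 B-WT lungs and between 13.8 and 103.0 TPM (median 32.8) in IL-10 B-KO lungs, with means of 31.2 ± 15.8 and 46.9 ± 37.8 TPM (SD, n = 6). The highest lungs were IL-10 B-KO replicates 2 and 1, and the lowest was also an IL-10 B-KO lung, replicate 6, so that the IL-10 B-KO lungs enclosed the whole range of the IL-10 B-WT lungs. The log2 fold change was 0.29 (limma, 95% interval -0.75 to 1.33, adjusted p = 0.806; exact permutation p = 0.610, n = 6). It was -0.02 without IL-10 B-KO replicate 2 and 0.23 without IL-10 B-KO replicates 2 and 6.

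Gzmb (ENSMUSG00000015437, chr14:56258838-56262260, minus strand) encodes granzyme B, which activates caspases in the target cell. It lay between 3.41 and 17.7 TPM (median 5.64) in IL-10 B-WT lungs and between 3.38 and 13.3 TPM (median 10.2) in IL-10 B-KO lungs. The highest value was that of IL-10 B-WT replicate 1, and all but 1 of the IL-10 B-KO lungs lay within the range of the other genotype. For Gzmb the log2 fold change was 0.20 (limma, 95% interval -0.70 to 1.10, adjusted p = 0.850; exact permutation p = 0.671, n = 6). It was 0.44 without replicate 1 of IL-10 B-WT, and 0.06 and 0.03 without replicates 4 and 5 of that genotype.

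Gzmk (ENSMUSG00000042385, chr13:113171608-113225908, minus strand) encodes granzyme K, which is typical of memory CD8 T cells. It lay between 0.07 and 3.48 TPM (median 0.83) in IL-10 B-WT lungs and between 0.16 and 2.20 TPM (median 0.465) in IL-10 B-KO lungs. Only 4 lungs reached 1 TPM, led by IL-10 B-WT replicate 2, and the IL-10 B-KO range lay within that of IL-10 B-WT. The mean of log2(TPM + 1) of IL-10 B-KO minus that of IL-10 B-WT was -0.23 (exact permutation test, p = 0.602, n = 6), and Gzmk was the 1 member with a difference below 0. Its gene span also contains Esm1 on the other strand, so that without strand information their reads could be mixed.

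Prf1 (ENSMUSG00000037202, chr10:61297833-61304680, plus strand) encodes perforin. It lay between 2.83 and 7.80 TPM (median 3.49) in IL-10 B-WT lungs and between 1.96 and 11.3 TPM (median 5.69) in IL-10 B-KO lungs, and 2 of the latter were above and 2 below every IL-10 B-WT lung. As for Gzma, the 3 highest lungs were IL-10 B-KO replicates 2 and 1 and IL-10 B-WT replicate 3. Prf1 had a log2 fold change of 0.30 (limma, 95% interval -0.47 to 1.08, adjusted p = 0.719; exact permutation p = 0.461, n = 6), which was 0.11 when replicate 2 of IL-10 B-KO was left out and 0.52 when replicate 3 was.

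Nkg7 (ENSMUSG00000004612, chr7:43437073-43438249, plus strand) encodes a granule membrane protein needed for efficient granule release. It lay between 10.1 and 43.0 TPM (median 16.5) in IL-10 B-WT lungs and between 11.1 and 71.6 TPM (median 30.0) in IL-10 B-KO lungs. A single IL-10 B-KO lung, replicate 1, exceeded all IL-10 B-WT lungs, and the others overlapped with them. Its log2 fold change was 0.51 (limma, 95% interval -0.40 to 1.42, adjusted p = 0.600; exact permutation p = 0.310, n = 6), and 0.24 when that lung was left out.

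Of the receptors, Ncr1 (ENSMUSG00000062524, chr7:4337724-4345164, plus strand) encodes NKp46, an activating receptor. It lay between 1.39 and 4.77 TPM (median 2.10) in IL-10 B-WT lungs and between 1.36 and 8.76 TPM (median 3.13) in IL-10 B-KO lungs. IL-10 B-KO replicates 2 and 1 were above every IL-10 B-WT lung and the other 4 were within or below their range. For Ncr1 the log2 fold change was 0.45 (limma, 95% interval -0.35 to 1.24, adjusted p = 0.595; exact permutation p = 0.284, n = 6). Leaving out replicate 2 or replicate 1 of IL-10 B-KO gave 0.23 and 0.26.

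Klrb1c (ENSMUSG00000030325, chr6:128778485-128789215, minus strand) encodes NK1.1, the antigen by which NK cells of C57BL/6 mice are stained. It lay between 1.88 and 4.61 TPM (median 2.75) in IL-10 B-WT lungs and between 1.26 and 7.43 TPM (median 2.38) in IL-10 B-KO lungs. The medians and the mean of the logarithms were thus ordered in opposite ways, and the high values again belonged to IL-10 B-KO replicates 2 and 1. The log2 fold change was 0.07 (limma, 95% interval -0.59 to 0.73, adjusted p = 0.932; exact permutation p = 0.833, n = 6). It was -0.14 and -0.08 when replicate 2 or replicate 1 of IL-10 B-KO was left out, -0.02 when replicate 4 of IL-10 B-WT was, and -0.04 after centring each library on its median. The annotated gene Gm44511 overlaps Klrb1c on the same strand, so that the split of reads between them is uncertain.

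Klrk1 (ENSMUSG00000030149, chr6:129610323-129623864, minus strand) encodes NKG2D, a receptor for ligands that stressed cells display. It lay between 3.19 and 18.0 TPM (median 7.71) in IL-10 B-WT lungs and between 6.96 and 33.7 TPM (median 11.3) in IL-10 B-KO lungs. A single lung, IL-10 B-KO replicate 1, was above all IL-10 B-WT lungs, and IL-10 B-WT replicate 1 was next. Klrk1 had a log2 fold change of 0.66 (limma, 95% interval -0.25 to 1.57, adjusted p = 0.506; exact permutation p = 0.195, n = 6), the highest of the 9 members, and 0.40 when IL-10 B-KO replicate 1 was left out. Without IL-10 B-WT replicate 1 its unadjusted limma p was 0.0495, in a fit where 17.9% of all genes were higher at a p of 0.05, and its adjusted p over all alternatives was 0.178 or more.

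Eomes (ENSMUSG00000032446, chr9:118478212-118486132, plus strand) encodes eomesodermin, a T-box transcription factor of mature NK cells and memory CD8 T cells. It lay between 0.43 and 2.87 TPM (median 1.15) in IL-10 B-WT lungs and between 0.55 and 6.12 TPM (median 1.45) in IL-10 B-KO lungs. IL-10 B-KO replicate 1 stood above all the others, which overlapped. Eomes overlaps the annotated gene Gm33460 on the other strand, so that without strand information its reads could be mixed. Its log2 fold change was 0.26 (limma, 95% interval -0.52 to 1.05, adjusted p = 0.759; exact permutation p = 0.543, n = 6), and -0.02 without IL-10 B-KO replicate 1.

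Ifng (ENSMUSG00000055170, chr10:118441046-118445892, plus strand) encodes interferon gamma. It lay between 0.17 and 9.92 TPM (median 0.95) in IL-10 B-WT lungs and between 0.43 and 10.3 TPM (median 1.92) in IL-10 B-KO lungs, the widest relative range of the members at 60.5 times from the lowest to the highest lung. A single lung of each genotype carried the high values, replicate 1 of IL-10 B-WT and replicate 5 of IL-10 B-KO, and no other lung exceeded 3.14 TPM. Ifng contains the annotated gene Gm49751 on the same strand, so that the split of reads between them is uncertain. The log2 fold change was 0.23 (limma, 95% interval -1.04 to 1.49, adjusted p = 0.880; exact permutation p = 0.734, n = 6), and -0.15 without IL-10 B-KO replicate 5.

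The receptors and targets of interferon gamma followed the same 2 lungs. Of 16 such genes, 15 had replicate 1 of IL-10 B-WT and replicate 5 of IL-10 B-KO as their 2 highest lungs. Their summed level was 6625.6 TPM in IL-10 B-WT replicate 1 and 6348.1 TPM in IL-10 B-KO replicate 5, while the other IL-10 B-WT lungs lay between 416.4 and 1107.3 TPM and the other IL-10 B-KO lungs between 599.7 and 2013.1 TPM. Irf1, a transcription factor induced by interferon gamma and the most abundant of them, was at 883.4 and 738.3 TPM in these 2 lungs. Of 15 tested, 15 had a log2 fold change above 0 (median 1.03), or 14 after median centring, and 0 passed the limma threshold or an unadjusted p of 0.05. The median was 0.48 without IL-10 B-KO replicate 5. It was 1.67 without IL-10 B-WT replicate 1, where 12 were higher at an unadjusted p of 0.05 and 0 passed the threshold. The median was 1.92, with 9 past the threshold, without replicate 1 of IL-10 B-WT and replicate 2 of IL-10 B-KO. Calls rose over the whole table when these libraries were left out, to 576 of 14943 genes (3.85%, 344 higher and 232 lower) without the former and 1430 of 14762 (9.69%, 1043 higher and 387 lower) without both, so that all counts of listed genes past the threshold under these alternatives stand against those shares. For 9 of the 18 lists described beside the members, this one included, these were the IL-10 B-WT lung with the highest sum and the IL-10 B-KO lung with the lowest, and for B cell and for mast cell and basophil markers the reverse. Leaving them out then widens the difference by construction, and the added calls do not support it.

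**Figure D2:**
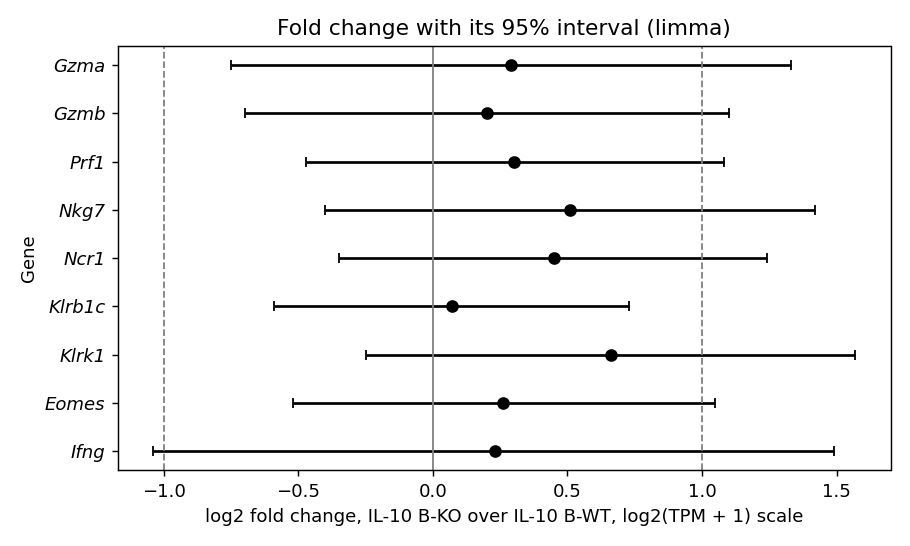
Log2 fold change of IL-10 B-KO over IL-10 B-WT lungs on the log2(TPM + 1) scale for the 9 members tested, with the 95% interval from limma as bars, a solid line at 0 and dashed lines at the threshold of 1 in either direction. All 9 intervals include 0, and that of Ifng, from -1.04 to 1.49, is the widest.

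Averaged over the 12 lungs, the order of the levels was Gzma (39.1 TPM), Nkg7 (26.7), Klrk1 (12.2), Gzmb (8.62), Prf1 (5.32), Ncr1 (3.49), Klrb1c (3.27), Ifng (2.80), Eomes (1.72) and Gzmk (1.03). On the log2(TPM + 1) scale, Nkg7 exceeded Klrk1 by 1.07 ± 0.38 (SD over 12 lungs), Gzmb exceeded Prf1 by 0.57 ± 0.33 and Prf1 exceeded Ncr1 by 0.52 ± 0.27, each in all 12 lungs. Between the other neighbours the mean difference was smaller than its SD, also where most lungs had the same order. Gzma was above Nkg7 in 11 of 12 lungs (0.47 ± 0.51), Eomes above Gzmk in 10 (0.42 ± 0.50), and Klrk1 above Gzmb and Klrb1c above Ifng in 9 each. Ncr1 was above Klrb1c in 6 lungs and Ifng above Eomes in 5.

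The balance between members was compared through 7 differences of log2(TPM + 1) within each lung. Gzma exceeded Ncr1 by 3.13 ± 0.27 for IL-10 B-WT and by 2.96 ± 0.41 for IL-10 B-KO (SD, n = 6), a difference of -0.16 between genotypes (exact permutation p = 0.439, 0.615 after Benjamini-Hochberg adjustment over the 7) that lay between -0.25 and -0.03 with single libraries left out. Prf1 exceeded Ncr1 by 0.59 ± 0.25 and 0.45 ± 0.29, a difference of -0.15 (exact permutation p = 0.368, n = 6) that lay between -0.26 and -0.07. The -0.26 was without IL-10 B-KO replicate 5 (exact permutation p = 0.026, 0.182 adjusted over the 7), the smallest p over the alternatives. These SDs were well below those of Gzma itself within each genotype, 0.60 and 1.20, so that Gzma and Ncr1 moved together from lung to lung, while Ifng to Ncr1 varied more, with SDs of 0.81 and 1.31. The remaining differences between genotypes lay between -0.51, for Gzmk to Gzma, and 0.42, for Gzmb to Gzmk, and single lungs moved both. Gzmk to Gzma was -0.14 without replicate 2 of either genotype and -0.86 without IL-10 B-KO replicate 6. Gzmb to Gzmk was 0.19 without IL-10 B-WT replicate 2, 0.23 without IL-10 B-KO replicate 2, and 0.67 without replicate 1 of IL-10 B-WT, as also without replicate 6 of IL-10 B-KO. All 7 adjusted p-values were 0.615 or more in the exact permutation test.

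The variation lay between lungs of 1 genotype. IL-10 B-KO replicate 1 was among the 3 highest lungs for 9 of the 10 members, IL-10 B-WT replicate 3 for 8 and IL-10 B-KO replicate 2 for 5. At the other end, IL-10 B-KO replicate 3 was among the 3 lowest lungs for 8 members, and IL-10 B-WT replicates 4 and 5 for 7 each. Both ends thus held lungs of each genotype. Gzma differed by 7.45 times between the highest and lowest IL-10 B-KO lungs, and by 3.48 times among IL-10 B-WT lungs.

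**Figure D3:**
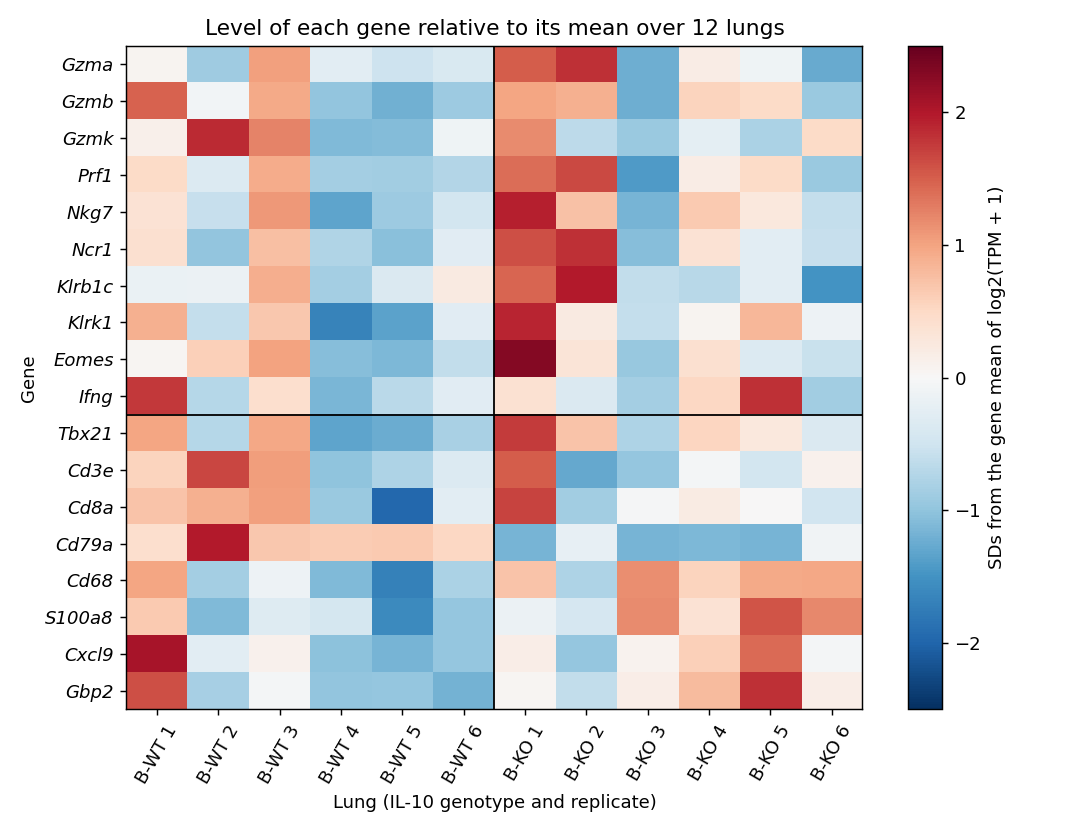
Level of each gene in each lung as the number of SDs from its mean log2(TPM + 1) over 12 lungs, red above and blue below, with the 10 members above the horizontal line and Tbx21 and markers of other cells and of the interferon gamma response under it. Columns are lungs, IL-10 B-WT left and IL-10 B-KO right of the vertical line, and high lungs of the members are found on both sides.

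The genes most like the members were sought among 15109 others by Pearson's r over the 12 lungs with the mean standardised level of the 9 members, after subtracting genotype means, as a description. The first was Tbx21 (r = 0.952, Spearman's rho 0.951), which encodes T-bet, the T-box factor that acts beside eomesodermin. The rest were Sytl3 (r = 0.946, rho 0.958), Klra7 (0.922, 0.944), Klra4 (0.906, 0.867), AW011738 (0.897, 0.895), Gm15506 (0.887, 0.839), Fasl (0.870, 0.846), Klre1 (0.868, 0.769), Amz1 (0.856, 0.811) and Klrb1b (0.853, 0.867). Klra7, Klra4, Klre1 and Klrb1b encode lectin-like NK receptors, and Fasl encodes a death ligand of cytotoxic cells. Klra genes are a family of close copies, so that the split of reads among them is uncertain. Over all genes the median r was 0.187. It was 0.499 for Cd3e, 0.607 for Cd8a, 0.143 for Cd68 and -0.133 for S100a8, markers of T cells, CD8 T cells, macrophages and neutrophils.

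Of the other granzymes, 7 were in the table and 0 reached the filter. Gzmg and Gzmn were listed at 0 in all lungs, and Gzmm was the most abundant with a mean of 0.855 TPM over all lungs. The genes that store, process and release granules, with the death ligands, numbered 14, of which 13 had a log2 fold change above 0 (median 0.57), or 12 after median centring. None passed the limma threshold, and 3 were higher at an unadjusted p of 0.05. These were Ctsc, the protease that activates granzymes (log2 fold change 1.41, limma adjusted p = 0.353), Lyst (1.22, limma adjusted p = 0.353) and Rab27a (0.66, limma adjusted p = 0.378). The count was 0 without IL-10 B-WT replicate 4, 5 or 6 or IL-10 B-KO replicate 5, and 9 of 13 without IL-10 B-WT replicate 1. With all lungs, counts of listed genes at this p stand against 6.83% of all genes higher and 5.71% lower. Those above 0 stand against 63.2%, or 48.7% after median centring. Ctsc passed without IL-10 B-WT replicate 1, and 6 of 13 genes did when IL-10 B-KO replicate 2 was left out as well. Ctsc was highest in IL-10 B-KO replicate 5 and IL-10 B-WT replicate 1. It was next in IL-10 B-KO replicate 3, at 376.7 TPM, a lung among the 3 lowest for 8 of the members. Which cells carried Ctsc, Lyst and Rab27a was not tested. Lamp1, a membrane protein of lysosomes, was the most abundant gene of this list.

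Of 23 other NK receptors and adaptors tested, 22 had a log2 fold change above 0 (median 0.27), or 19 after median centring and 14 with array weights, with 7 higher and 1 lower at an unadjusted limma p of 0.05 and 0 past the threshold. IL-10 B-KO replicate 1 was the highest lung for 16 of the 28 genes of this list in the table, and without it 13 of 22 were above 0 (median 0.06). Those higher at that p numbered 4 without IL-10 B-WT replicate 2, 4 or 5. The smallest p belonged to Tyrobp, the adaptor DAP12, with means of 318.8 ± 279.5 TPM for IL-10 B-WT and 808.0 ± 317.8 TPM for IL-10 B-KO (SD, n = 6; log2 fold change 1.64, limma adjusted p = 0.286). Next were Hcst, the adaptor of NKG2D (0.91, limma adjusted p = 0.298), Fcgr3 (1.88, limma adjusted p = 0.304) and Cd244a (0.81, limma adjusted p = 0.330). Fcer1g was the most abundant. Tyrobp, Fcer1g and Fcgr3, which are also expressed by macrophages and neutrophils, passed the threshold when IL-10 B-WT replicate 1 was left out, and 6 of 21 genes did with IL-10 B-KO replicate 2 left out too. Itga1, the integrin CD49a, was the 1 gene lower, at 32.9 ± 3.20 and 24.3 ± 5.27 TPM (log2 fold change -0.44, limma adjusted p = 0.319). Unlike most of the list, Itga1 was lowest in IL-10 B-KO replicate 1 (17.9 TPM), and which cells carried it was not tested. The ligands of NKG2D, of which 3 were tested, had a median log2 fold change of 0.59, and Raet1e was higher at an unadjusted p of 0.05 (0.56, limma adjusted p = 0.358).

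Other transcription factors of these cells had a median log2 fold change of 0.07 over 11 tested. At an unadjusted limma p of 0.05, Nfil3 (1.29, adjusted p = 0.350) and Id2 (0.88, adjusted p = 0.353) were higher, and Gata3 (-0.81, adjusted p = 0.238) and Tox2 (-0.66, adjusted p = 0.256) lower. Nfil3 was highest in IL-10 B-KO replicates 5 and 3 (36.3 and 33.1 TPM), Id2 in IL-10 B-KO replicate 3 (204.8 TPM), and Tox2 in IL-10 B-WT replicates 6 and 2. Which cells of the lung carried these factors was not tested. Nfil3, Id2 and Gata3 passed the threshold without replicate 1 of IL-10 B-WT and replicate 2 of IL-10 B-KO. At the unadjusted limma p of 0.05, 0 of the 11 were higher and 2 lower without IL-10 B-WT replicate 5 or 6. The same counts were found without IL-10 B-KO replicate 3, 5 or 6. Of 12 cytokines and receptors that activate NK cells, 9 were above 0 (median 0.34), and Il18rap, a chain of the interleukin-18 receptor, had the smallest p (1.13, limma adjusted p = 0.328), while Il2rg was the most abundant. Il18rap passed the threshold without IL-10 B-WT replicate 1. Of 11 chemokines and homing receptors, 10 were above 0 (median 0.70), or 9 after median centring, with 2 higher at an unadjusted p of 0.05, among them Ccl5 (1.18, limma adjusted p = 0.281), the most abundant. Of these 11, 4 passed the threshold, Ccl5 among them, once IL-10 B-WT replicate 1 was left out. In the KEGG pathway of NK cell cytotoxicity, which names 5 of the members, 89 of 111 genes were tested and 0 passed the threshold. Of these 89, 75 were above 0 (median 0.26), against 63.2% of all genes, or 65 after median centring, against 48.7%. At an unadjusted limma p of 0.05, 9 were higher and 0 lower, against 6.83% and 5.71% of all genes. These counts were 4 and 2 without IL-10 B-WT replicate 5 (3.19% of all genes higher), and 11 and 2 after median centring (10.3%). Leaving out IL-10 B-WT replicate 1 brought 30 of 87 higher at an unadjusted p of 0.05, against 17.9% of all genes, and 4 past the threshold, among them Tyrobp and Fcer1g, all on the higher side, against 2.3% of all genes on that side. With IL-10 B-KO replicate 2 left out too, 13 of 84 passed, all higher, against 7.07% of all genes.

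Markers of other cells were read beside the members, and their part in the results was not tested. T cell markers, 13 tested of 15, had a median log2 fold change of 0.02, with 7 above 0 and 0 at an unadjusted limma p of 0.05, and the median was -0.30 or 0.25 when replicate 5 or replicate 2 of IL-10 B-WT was left out. Their summed level was 190.9, 451.8, 297.3, 75.6, 54.7 and 150.7 TPM across replicates 1 to 6 of IL-10 B-WT and 447.6, 97.9, 104.5, 166.1, 138.8 and 143.9 TPM across replicates 1 to 6 of IL-10 B-KO, with Trbc2 the most abundant and none at 0 in all lungs. IL-10 B-KO replicate 1 and IL-10 B-WT replicate 3 were among the 3 highest lungs for all 15 T cell markers, and for 9 and 8 of the 10 members. IL-10 B-WT replicates 4 and 5 were among the 3 lowest for 14 T cell markers and 7 members each. Other lungs differed between the lists. IL-10 B-KO replicate 2 had the highest Gzma, Prf1, Ncr1 and Klrb1c of the 12 lungs beside a low sum of T cell markers. IL-10 B-WT replicate 2 had the highest sum of T cell markers beside 17.8 TPM of Gzma. The 2 CD8 T cell markers, led by Cd8b1, had log2 fold changes of -0.10 and 0.18. The 5 markers of gamma delta T and NKT cells were all above 0 (median 0.48), with Zbtb16 highest in level and higher at an unadjusted p of 0.05 (0.94, limma adjusted p = 0.330). Zbtb16 did not share the lung pattern of Trdc. It was lowest in IL-10 B-KO replicate 1 (3.41 TPM) and highest in IL-10 B-KO replicate 2 (22.9 TPM), where Trdc was at 21.1 and 2.93 TPM. Other innate lymphoid cell markers had a median of 0.33 over 5 tested, of which 3 were above 0, and of -0.01 without IL-10 B-WT replicate 5, with Areg higher at an unadjusted p of 0.05 (1.36, limma adjusted p = 0.195) and past the threshold without IL-10 B-WT replicate 1, and Tcf7, with a log2 fold change of -0.59, the most abundant.

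Monocyte and macrophage markers were above 0 in 10 of 10 genes (median 1.57), 8 of them at an unadjusted limma p of 0.05 and 0 past the threshold, or 3 past it without IL-10 B-WT replicate 1, and 9 with IL-10 B-KO replicate 2 left out too. These lungs had the highest and the lowest sum of these markers in their genotypes. Leaving them out widens the difference of these markers by construction, and the added calls do not support it. Their summed level was 3217.2, 752.8, 1503.1, 462.7, 227.8 and 714.4 TPM across replicates 1 to 6 of IL-10 B-WT and 2467.6, 707.6, 4817.0, 2163.9, 4902.1 and 3163.8 TPM across replicates 1 to 6 of IL-10 B-KO, led by Ly6c2. Cd68, C1qb, C1qc and Adgre1 had the smallest p, with log2 fold changes of 1.73, 1.65, 1.48 and 1.94. IL-10 B-KO replicate 3, the highest lung for 7 of these 10 genes, was among the 3 lowest for 8 of the members. Neutrophil markers were above 0 in 8 of 8 genes (median 1.72), all 8 at an unadjusted limma p of 0.05 and 0 past the threshold, with summed levels of 2551.0, 460.4, 1115.3, 945.8, 286.1 and 554.8 TPM across replicates 1 to 6 of IL-10 B-WT and 1291.8, 1052.5, 4511.1, 2032.1, 7661.3 and 5062.1 TPM across replicates 1 to 6 of IL-10 B-KO. Retnlg, S100a9, S100a8 and Ly6g had the smallest p, with log2 fold changes of 2.09, 1.87, 1.94 and 1.27, and S100a9 was the most abundant. Of these 8, 6 passed the threshold without IL-10 B-WT replicate 1, and 8 with IL-10 B-KO replicate 2 left out too, again the highest and the lowest lung of their genotypes for this sum.

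B cell markers were below 0 in 8 of 8 genes (median -2.45), 7 of them at an unadjusted limma p of 0.05, and Cd79a passed the threshold (log2 fold change -4.16, limma adjusted p = 0.0222). It did not pass without a filter on low values, nor when replicate 4 or 5 of IL-10 B-WT, or replicate 1, 3 or 5 of IL-10 B-KO, was left out, while 3 B cell markers passed without replicate 1 of IL-10 B-WT, 4 without replicate 2 of IL-10 B-KO (0.727% of all genes) and 6 with both left out. Their summed level was 77.0, 858.8, 130.6, 85.7, 81.3 and 96.3 TPM across replicates 1 to 6 of IL-10 B-WT and 13.8, 88.3, 6.98, 5.87, 5.26 and 59.5 TPM across replicates 1 to 6 of IL-10 B-KO, with Cd79b the most abundant. Pax5 and Fcmr followed Cd79a with log2 fold changes of -2.87 and -3.07. Mast cell and basophil markers were below 0 in 4 of 4 tested (median -0.53), with Cpa3 (-1.01, limma adjusted p = 0.0961) and Kit (-0.65, limma adjusted p = 0.347) lower at an unadjusted p of 0.05 and Gata2 the most abundant, and Cpa3 passed the threshold without IL-10 B-WT replicate 1. Kit and Gata2 averaged 83.3 and 134.1 TPM over all lungs, beside 1.71 TPM for Cpa3, and which cells carried them was not tested. With no filter on low values, 2 of 10 genes of this list were above 0. Lung tissue markers had a median of -0.01 over 10 genes, with Sftpb higher at an unadjusted p of 0.05 (0.74, limma adjusted p = 0.378) and Scgb1a1, a club cell protein, the most abundant. Of these 10, Col1a1 (higher) and Scgb1a1 (lower) passed the threshold without replicate 1 of IL-10 B-WT and replicate 2 of IL-10 B-KO. The 6 genes of cycling cells were above 0 (median 0.96), with Cdk1 (1.61, limma adjusted p = 0.330) and Ccnb1 (0.90, limma adjusted p = 0.388) higher at an unadjusted p of 0.05 and Cdk1 the most abundant. Cdk1 passed the threshold without IL-10 B-WT replicate 1, and 5 of the 6 did with IL-10 B-KO replicate 2 left out too.

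To show sequence beside the levels, the 250 bases before the starts of the members were searched for letters bound by factors of cytotoxic lymphocytes, in RefSeq sequences of GRCm38.p6, which held all 10 members. The RUNX-type letters TGTGGT, or ACCACA on the other strand, were in 7 of the 10 members, Gzma, Gzmb, Prf1, Nkg7, Ncr1, Klrb1c and Klrk1, and in 14.0% of all 32851 promoters. The T-box-type letters GGTGTGA, or TCACACC, were in Gzmk and Nkg7 and in 3.33% of all promoters. TTCNNNGAA, the STAT-type letters, which read alike on both strands, were in Ifng and Nkg7 and in 7.02% of all promoters. These matches did not overlap each other in Nkg7, the 1 member with all of them. The windows below are those that hold the RUNX-type letters, in capitals, and lie wholly before the annotated gene, read in the direction of the gene. Gzmb and Ncr1 each had another such match, 93 and 176 bases before the start, and the one nearer the start, at 34 and 41 bases, is shown. These distances are to the RefSeq starts, which differ for both genes from the gene bounds given above. The windows of Nkg7 and Klrb1c, which reach into or lie within the annotated gene, are not shown. Those shown lie at chr13:113101006-113101051 (minus strand) for Gzma, chr14:56262343-56262388 (minus) for Gzmb, chr10:61297686-61297731 (plus) for Prf1, chr7:4337654-4337699 (plus) for Ncr1 and chr6:129623968-129624013 (minus) for Klrk1. A match is a description of the letters and not a site of binding.
Gzma: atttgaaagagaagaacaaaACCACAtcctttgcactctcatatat
Gzmb: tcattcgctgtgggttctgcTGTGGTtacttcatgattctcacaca
Prf1: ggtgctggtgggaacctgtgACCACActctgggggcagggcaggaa
Ncr1: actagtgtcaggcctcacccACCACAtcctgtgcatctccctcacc
Klrk1: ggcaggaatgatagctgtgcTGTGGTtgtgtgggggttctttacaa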

How the data were processed

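Whole-lung RNA-seq of 12 LPS-treated mice (IL-10 B-WT or IL-10 B-KO, 6 of each) was read from 1 table with 1 column per library. The authors deposited the values as TPM; the submitters' processing notes name fastp, HISAT, RSEM and GRCm38.p5, without versions. The 10 members and all gene lists were chosen with earlier results of these data known. Genes with at least 1 TPM in at least 6 libraries (15148) were fitted with limma 3.58.1 in R 4.3.3 (lmFit, eBayes with a trend) on log2(TPM + 1), which understates fold changes of low genes, with Benjamini-Hochberg adjustment over all of them. Single genes and differences between members were compared by two-sided exact permutation tests (924 arrangements, smallest p 0.00216) in Python 3.11.15 with NumPy 2.4.6, pandas 2.3.3 and SciPy 1.17.1. Figures used matplotlib 3.10.9. The procedures were first tested on simulated data. TPM keep no depth, so that precision rests on the spread between lungs. Genes named were the members, Il10, Cd79a, the 10 genes most like the members, and in each list those past the threshold, up to 4 per direction with the smallest p at or under 0.05, the most abundant and those at 0; some genes this names are not reported here. Coordinates came from GENCODE M21, and 8 listed symbols were not found. Alternatives covered the pseudocount, filter, scaling, sample weights, replicate number as a block, and libraries left out, of which the joint omissions were chosen with results of these data known.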

Additional observations from a re-analysis of the deposited data

Results flagged for a closer look

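In each genotype, the highest and lowest lung were compared with the others by Dixon's ratio, the gap to the nearest lung over the whole range, whose 95% critical value for 6 lungs is 0.625. This was done for 30 quantities (the members, Il10, Cd79a and 18 summed gene lists) on the TPM and log2(TPM + 1) scales, 120 groups in all, and 20 lay past the critical value. Chance marks about 5% of groups, and the scales of a quantity are not independent. Among the members, Gzma in IL-10 B-WT replicate 3 was at 61.8 TPM, where the other lungs of its genotype reached at most 33.4 TPM. Eomes in IL-10 B-KO replicate 1 was at 6.12 TPM beside at most 1.93 TPM. Ifng was at 9.92 TPM in IL-10 B-WT replicate 1 beside at most 2.85 TPM, and at 10.3 TPM in IL-10 B-KO replicate 5 beside at most 3.14 TPM. These lay past the critical value on the TPM scale and not on the log2 scale.

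Summed receptors and targets of interferon gamma stood apart at 6625.6 TPM in IL-10 B-WT replicate 1, on both scales, and at 6348.1 TPM in IL-10 B-KO replicate 5, on the TPM scale. In IL-10 B-WT replicate 1, summed neutrophil markers reached 2551.0 TPM and other granzymes 4.21 TPM. IL-10 B-KO replicate 1 had 447.6 TPM of T cell markers, on both scales, and 36.1 TPM of CD8 T cell markers. Lower than the rest, IL-10 B-KO replicate 2 had 647.9 TPM of other NK receptors and adaptors on the log2 scale, a sum made up mostly of Tyrobp (245.1 TPM), Fcer1g (212.6 TPM) and Fcgr3 (47.0 TPM). Over single genes of that list it was among the 3 highest of the 12 lungs for 10 of 28 and among the 3 lowest for 2. It was higher with 318.4 TPM of mast cell and basophil markers, nearly all of it Gata2 (174.8 TPM) and Kit (136.45 TPM), while Cpa3 was at 0.78 TPM. Its 112068.3 TPM of lung tissue markers, also higher, was mostly Scgb1a1 (92709.6 TPM). IL-10 B-WT replicate 2 had 258.6 TPM of Cd79a and 858.8 TPM of B cell markers, both on either scale.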

How the results depend on the processing

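The 36 results were recomputed under 22 alternatives, of which 1, leaving out IL-10 B-KO replicates 2 and 6, was chosen after seeing the data, and another, leaving out replicate 1 of IL-10 B-WT and replicate 2 of IL-10 B-KO, with earlier results known. Of 757 values, 716 kept their direction and side of the threshold or moved by less than the spread, and the cause of the other changes was not tested. Members past the threshold numbered 0 under all 22. The filter left 5 members at a mean TPM of at least 5, and 7 without replicate 1 of IL-10 B-WT and replicate 2 of IL-10 B-KO, where Eomes and Ifng gave no value. Members with an unadjusted p of 0.05 or less ranged from 0 to 1 when single libraries were left out, the 1 of 9 being Klrk1 without IL-10 B-WT replicate 1, where 17.9% of all genes were higher at that p. The median log2 fold change of the members lay between 0.12 and 0.52. Genes past the threshold, 75, numbered 6 without a filter, 27 after rescaling without immunoglobulin genes, 39 after quantile normalization, 36 after median centring, 318 with array weights, 1430 without replicate 1 of IL-10 B-WT and replicate 2 of IL-10 B-KO, and 42 without IL-10 B-KO replicates 2 and 6. With single libraries left out they ranged from 15 to 576: of IL-10 B-WT, leaving out replicate 1 gave 576 and replicates 3 to 6 gave 44, 20, 23 and 33, and 17, 20, 15 and 43 without IL-10 B-KO replicates 1, 3, 5 and 6. Median centring moved the median log2 fold change of all genes from 0.10 to -0.01.

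With the replicate number as a block, 45 genes passed. The numbers are not known to pair the mice, same-numbered lungs correlated between -0.292 and 0.0458 in their deviations from the genotype means, and 0 of 12 lungs correlated best with their own number. The block changed no call of a member.

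Of the members, Klrb1c turned to -0.04 with median centring, -0.21 with array weights and -0.15 without replicate 1 of IL-10 B-WT and replicate 2 of IL-10 B-KO, and Gzma to -0.03 with array weights. With single libraries left out, Klrb1c lay between -0.14 and 0.24, Gzma between -0.02 and 0.54, Eomes between -0.02 and 0.43 and Ifng between -0.15 and 0.64. The difference of Gzmb to Gzma, -0.09, turned to 0.30 without replicate 1 of IL-10 B-WT and replicate 2 of IL-10 B-KO and to 0.02 without IL-10 B-KO replicates 2 and 6, and lay between -0.20 and 0.12 with single libraries left out. That of Ifng to Ncr1, -0.22, turned to 0.41 and 0.29 and lay between -0.68 and 0.10. The median of the B cell markers, -2.45, was -4.03 with a pseudocount of 0.1 and -3.74 without IL-10 B-KO replicates 2 and 6.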
